A study of Mus musculus with 6 samples.

Results

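To describe how progranulin bears on the chemokine receptors of macrophages that meet Candida albicans, 9 receptor genes were taken by symbol from the 54532 genes of the deposited expression table: Ccr1, Ccr2, Ccr3, Ccr7, Ccrl2, Cxcr2, Cxcr4, Cx3cr1 and Ackr3. All 9 were found. Polyadenylated RNA was sequenced in 3 wild-type (WT) libraries, replicates 1, 2 and 3, and 3 progranulin knock out (PGRN KO) libraries, replicates 4, 5 and 6. Both groups were peritoneal macrophages of C57BL/6J mice, per the labels, seeded at a density of 2000000 per well and exposed in vitro for 6 hours to C. albicans at a ratio of 1 fungal cell per macrophage. Unchallenged cells were not analysed here, so that genotypes are compared in the presence of the fungus. The age of the mice that gave these cells is not stated in the labels, and the study describes its mice as matched for sex and age. The methods of the study name different suppliers for the PGRN KO and the WT mice, so that genotype and supplier cannot be told apart. The text of the study describes bone marrow-derived macrophages and another ratio of fungus to cells for this experiment, and the labels were followed for both.

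Chemokine receptors are membrane proteins with a serpentine fold that couple to inhibitory G proteins and steer leukocytes along gradients of small secreted proteins, the chemokines. Inflammatory receptors such as Ccr1 and Ccr2 draw monocytes and macrophages into inflamed tissue, and Ccr7 takes antigen-presenting cells to lymph nodes. Atypical members, here Ackr3 and Ccrl2, bind ligands without classical G protein signalling and instead scavenge or present them.

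The targeted gene was read first. Grn, which encodes progranulin, stood at 328 ± 7.18 FPKM in WT against 0.0111 ± 0.00961 FPKM in PGRN KO (SD, n = 3 each), where FPKM are fragments divided by gene model length and by library size. These levels came from 56466 fragments in WT and 2 in PGRN KO. The libraries held 15996786 to 17551619 fragments. PGRN KO replicate 6 stood apart from the others. The deviation of its genes from the mean of all libraries went with gene length at a Spearman correlation of -0.47 across genes, against 0.15 to 0.24 in the other 5 libraries. Values without it are therefore given for the receptors and for the counts. Of the 36 genes called among the receptors, pathway lists and marker lists, 36 were still called in the same direction without it. Over all 8882 tested genes, leaving it out raised the calls from 13.8% to 25.1% lower and from 10.4% to 16.2% higher in PGRN KO. The kept calls are therefore no sign of stability, and leaving out a WT library lost some of them, as given below. The general macrophage markers Adgre1, Csf1r, Cd68, Itgam, Lyz2, Cd14, Fcgr1 and Mertk were detected in every library, with a summed level of 11618 to 12561 FPKM in WT against 10445 to 14377 FPKM in PGRN KO. Lyz2, Cd14 and Cd68 make up most of this sum. Within the list, Csf1r was lower in PGRN KO (log2 difference -0.38, adjusted p = 0.0178, limma) and Mertk higher (0.81, adjusted p = 0.00640, limma). Of the genes that mark resident large peritoneal macrophages, the transcription factor Gata6 was at 3.78 to 5.07 FPKM over the 6 libraries, and Timd4 was at most 0.204 FPKM. Of the 5 of these 10 genes that were tested, Fcna (2.73 ± 0.563 to 8.14 ± 2.40 FPKM) and Icam2 (3.10 ± 0.163 to 5.10 ± 0.526 FPKM) were higher in PGRN KO by limma (SD, n = 3 each). Of all tested genes, 10.4% were higher. The other 3, Gata6, F5 and Prg4, overlapped between the groups and did not pass the test, so that the list did not move as a whole.

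The 9 receptors spanned a wide range of levels, and the 4 receptors that fell in PGRN KO were Ccr1, Ccr7, Cxcr4 and Ackr3. Of the 9, 5 had a mean of at least 1 FPKM and were tested with limma on log2(FPKM + 1), with adjustment over the 8882 genes tested. Of these 5, 4 were lower in PGRN KO at an adjusted p of at most 0.05, where 13.8% of all tested genes were lower. None of the 5 was higher, at an adjusted or an unadjusted p under 0.05, against 10.4% of all tested genes that were called higher. The median log2 difference, PGRN KO minus WT, was -0.60 over the 5 receptors and -0.03 over all tested genes. In 4 of the 5, every PGRN KO library lay below every WT library, a pattern that 27.6% of all tested genes showed. Nothing in the labels says that the replicates came from separate animals or cultures, so that p-values measure the spread between these libraries alone. In bulk RNA, fewer cells of a type and less RNA per cell cannot be told apart.

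**Figure D1:**
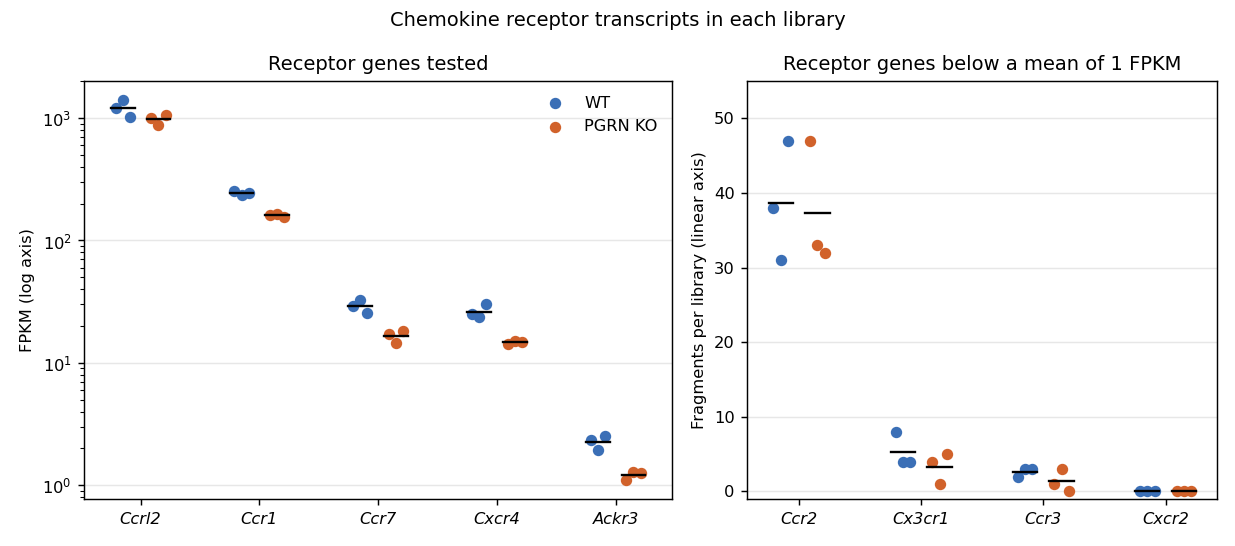
FPKM of the 5 tested receptors (left, log axis) and fragments of the 4 receptors below a mean of 1 FPKM (right, linear axis) in each library, with blue points for WT, orange points for PGRN KO and a bar at the group mean. The groups are separate for Ccr1, Ccr7, Cxcr4 and Ackr3 and overlap for Ccrl2 and Ccr2, and Cxcr2 has 0 fragments in all 6 libraries.

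By level, the order was Ccrl2, Ccr1, Ccr7, Cxcr4, Ackr3, Ccr2, Cx3cr1, Ccr3 and Cxcr2, in FPKM and thus per length of gene model. Neighbours in this order were separate in both genotypes, apart from 3 pairs. The ranges of Ccr7 and Cxcr4 overlapped in both genotypes, as did those of Cx3cr1 and Ccr3, and Ccr3 and Cxcr2 were separate in WT but not in PGRN KO. Among 25 chemokine receptor genes in the table, Ccrl2 alone made up 71.2% to 77.7% of the summed receptor FPKM in WT and 77.3% to 81.3% in PGRN KO. Ccr1 made up 13.1% to 17.1% in WT and 11.9% to 14.6% in PGRN KO.

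The promoters of the receptors on which the comparison turned are shown to place these genes and to let their start regions be compared. RefSeq windows on GRCm38.p6 (250 bases before to 50 bases after the start of the gene, printed on the strand of the gene) were found for 8 of the 9 receptors, and Ccr7 had no entry. Capitals mark the letters of a searched motif, which were GAGGAA for PU.1, the lineage factor of myeloid cells, in Ccr1, TATAAA, the TATA box, in Cxcr4 and Ackr3, and ACGTG, the core of the hypoxia response element, in Ccrl2. The windows lie at chr9:123968643-123968942 (minus strand, Ccr1), chr1:128592250-128592549 (minus strand, Cxcr4), chr1:90203730-90204029 (plus strand, Ackr3) and chr9:111057469-111057768 (minus strand, Ccrl2).
Ccr1: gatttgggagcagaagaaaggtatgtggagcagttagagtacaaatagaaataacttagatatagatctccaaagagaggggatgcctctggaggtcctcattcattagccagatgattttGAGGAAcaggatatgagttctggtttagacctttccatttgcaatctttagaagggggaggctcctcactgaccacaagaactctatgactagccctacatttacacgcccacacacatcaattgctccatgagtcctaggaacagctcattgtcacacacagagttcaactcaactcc
Cxcr4: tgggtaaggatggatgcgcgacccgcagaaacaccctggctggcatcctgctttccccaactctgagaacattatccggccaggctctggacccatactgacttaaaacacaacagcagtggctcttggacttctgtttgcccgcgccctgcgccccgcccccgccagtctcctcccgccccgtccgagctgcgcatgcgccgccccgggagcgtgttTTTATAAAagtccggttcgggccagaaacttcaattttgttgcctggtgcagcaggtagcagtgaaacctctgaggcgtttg
Ackr3: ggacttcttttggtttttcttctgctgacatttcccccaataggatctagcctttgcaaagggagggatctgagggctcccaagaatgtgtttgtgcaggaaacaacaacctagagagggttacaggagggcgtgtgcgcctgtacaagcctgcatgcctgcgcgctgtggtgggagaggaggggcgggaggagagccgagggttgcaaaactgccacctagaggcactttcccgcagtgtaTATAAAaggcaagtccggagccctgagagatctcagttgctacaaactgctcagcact
Ccrl2: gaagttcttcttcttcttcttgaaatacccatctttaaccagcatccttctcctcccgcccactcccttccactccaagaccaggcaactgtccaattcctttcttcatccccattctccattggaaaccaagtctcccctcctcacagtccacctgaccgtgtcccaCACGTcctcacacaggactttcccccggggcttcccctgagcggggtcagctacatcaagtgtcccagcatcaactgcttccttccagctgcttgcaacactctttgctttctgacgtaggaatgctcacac
Matches were counted on both strands, also for TGANTCA (AP-1), TTCNNNGAA (STAT sites) and the longer motifs of NF-kB and of interferon regulatory factors, and these 4 had no match in the printed windows. In Ccr1, GAGGAA began at base -129 from the start of the gene, and 28.3% of all 32851 RefSeq windows held such a match. In Cxcr4, overlapping matches to TATAAA on both strands began at bases -32 and -30, and in Ackr3 1 match began at base -8, where 13.6% of all windows held one. In Ccrl2, the match to ACGTG, printed as CACGT since it lies on the other strand, began at base -82, and 19.6% of all windows held one. The Cxcr4 window held 20 CpG pairs and 59.3% G and C bases, the Ccr1 window 1 pair and 44.0%, and the median over all windows was 52.7%. No motif was common to the windows of the 3 printed receptors that fell. A match is a description of the letters alone.

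Ccr1, a receptor of the inflammatory CC chemokines Ccl3, Ccl5, Ccl6 and Ccl9, had the highest level of the receptors that fell. Ccr1 (ENSMUSG00000025804, GRCm38 chromosome 9, 123962124 to 123968692, minus strand) gave 252, 237 and 244 FPKM in WT replicates 1, 2 and 3, against 161, 165 and 156 FPKM in replicates 4, 5 and 6 of PGRN KO. The groups did not overlap, and the libraries of each group lay close together. The means were 244 ± 7.26 FPKM in WT against 161 ± 4.24 FPKM in PGRN KO (SD, n = 3 each), which put PGRN KO at 65.8% of WT. On the log2(FPKM + 1) scale the difference was -0.60 ± 0.08 (SE, as for all log2 differences here, with a 95% interval of -0.80 to -0.40, adjusted p = 0.00502, limma). Without PGRN KO replicate 6 it was -0.58 (adjusted p = 0.00088, limma). The level rested on 7651 to 12494 fragments per library.

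Ligands of Ccr1 were abundant in the same libraries, and 1 of them changed with it. Ccl9, a CC chemokine made by myeloid cells, was at 991, 1047 and 928 FPKM in WT against 487, 500.1 and 554 FPKM in PGRN KO. It fell by 0.94 ± 0.11 on the log2 scale (adjusted p = 0.00246, limma), to 51.9% of WT, with groups that did not overlap. Ccl3, the most abundant ligand listed, stood at 15053 to 20475 FPKM in WT against 14050 to 17282 FPKM in PGRN KO, and the groups overlapped. Ccl5 at 1002 to 1635 FPKM in WT against 1267 to 2030 FPKM in PGRN KO, and Ccl6 at 362 to 388 and 317 to 396 FPKM, overlapped as well and did not pass the test.

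Ccr2 and Ccr3, which lie beside Ccr1 in the genome, were far below it in level. Ccr2, the receptor of Ccl2 that brings monocytes out of the bone marrow, had 38, 31 and 47 fragments in WT and 47, 33 and 32 in PGRN KO. These values correspond to 0.310 to 0.385 FPKM in WT against 0.258 to 0.401 FPKM in PGRN KO, and the groups overlapped. Summed over libraries, the rate in PGRN KO was 0.894 of that in WT, with an exact 95% interval of 0.683 to 1.17 for counting error alone. Its ligand Ccl2 was at 380 to 521 FPKM in WT against 282 to 386 FPKM in PGRN KO and did not pass the test. Ccl7, another of its ligands, was at 426 to 566 and 274 to 438 FPKM and did not pass it either.

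Ccr3, the eotaxin receptor typical of eosinophils, was near the floor of detection, with 2, 3 and 3 fragments in WT and 1, 3 and 0 in PGRN KO. The rate ratio was 0.463, and its exact 95% interval of 0.102 to 1.73 was too wide to show a difference at this depth. The eosinophil granule genes Epx, Prg2 and Prg3 were at 0 in all 6 libraries. Ccl24, a ligand of Ccr3, rose from 2.04 ± 0.348 FPKM in WT to 3.51 ± 0.814 FPKM in PGRN KO (SD, n = 3 each), a log2 difference of 0.56 ± 0.15 (adjusted p = 0.0396, limma). Leaving out WT replicate 1, 2 or 3 or PGRN KO replicate 5 ended this call, as did voom on fragments and testing with no filter on low values, and at a mean of at least 5 FPKM it was not tested. Ccl11, another ligand, was at 0 in every library.

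Ccr1, Ccr3 and Ccr2 are close neighbours on chromosome 9, where 53279 bases separate Ccr1 from Ccr3, and Ccr1 stood far above Ccr3 and Ccr2 in level in both genotypes. Of the 31-base words of the Ccr2 transcripts, 3.41% also occur in transcripts of other genes, and of those of Ccr1 0.642%, most often Ccr3.

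Ccr7, the receptor that guides mature dendritic cells and other activated antigen-presenting cells toward lymph nodes, fell to 57.3% of WT. Ccr7 (ENSMUSG00000037944, chromosome 11, 99144196 to 99155077, minus strand) was at 28.9, 32.4 and 25.5 FPKM in WT replicates 1, 2 and 3, against 17.1, 14.4 and 18.2 FPKM in replicates 4, 5 and 6 of PGRN KO. Every PGRN KO library was below every WT library, with means of 28.9 ± 3.42 and 16.6 ± 1.93 FPKM (SD, n = 3 each). The log2 difference was -0.77 ± 0.13 (95% interval -1.06 to -0.47, adjusted p = 0.00775, limma), and -0.83 without PGRN KO replicate 6 (adjusted p = 0.00321, limma). Its ligands Ccl19 and Ccl21a were at 0 in all 6 libraries.

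Some markers of dendritic cells moved with Ccr7. The 8 listed markers summed to 28.7 to 33.2 FPKM in WT against 14.5 to 19.8 FPKM in PGRN KO. Of the 3 tested, 2 were lower in PGRN KO by limma, where 13.8% of all tested genes were, and these 2 make up most of the sum. Ccl22, a chemokine of dendritic cells and activated macrophages, went from 14.1 ± 1.33 to 7.65 ± 1.10 FPKM, and Fscn1, an actin-bundling protein of mature dendritic cells, from 12.5 ± 0.923 to 6.00 ± 1.15 FPKM (SD, n = 3 each). The defining genes Flt3 and Clec9a were low and not tested. Flt3 was at 0.269 to 0.361 FPKM in WT against 0.0935 to 0.145 FPKM in PGRN KO, and Clec9a at 0 to 0.0802 FPKM over the 6 libraries. Xcr1, not tested either, was at 0.971 to 1.34 FPKM in WT against 0.324 to 0.451 FPKM in PGRN KO. Clec9a and Zbtb46 overlapped between the groups. Ccl17, the other tested marker, overlapped between the groups, and Dpp4, which was not tested, was at 0.0877 to 0.139 FPKM in WT and 0.256 to 0.351 FPKM in PGRN KO, the opposite order. The part of these cells in the Ccr7 result was not tested.

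Cxcr4, which binds Cxcl12 and retains leukocytes in bone marrow and tissue, fell to 56.3% of WT. Cxcr4 (ENSMUSG00000045382, chromosome 1, 128588199 to 128592293, minus strand) was at 24.9, 23.5 and 30.1 FPKM in WT replicates 1, 2 and 3, against 14.2, 15.1 and 14.8 FPKM in replicates 4, 5 and 6 of PGRN KO. The WT libraries spread more than the PGRN KO libraries, and the groups did not overlap. The means were 26.1 ± 3.47 and 14.7 ± 0.486 FPKM (SD, n = 3 each). The log2 difference was -0.78 ± 0.11 (95% interval -1.04 to -0.52, adjusted p = 0.00502, limma), and -0.79 without PGRN KO replicate 6 (adjusted p = 0.00311, limma).

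Ackr3, the atypical receptor that takes up and clears Cxcl12 and Cxcl11, had a lower level than Cxcr4 and fell with it. Ackr3 (ENSMUSG00000044337, chromosome 1, 90203980 to 90216751, plus strand) was at 2.32, 1.94 and 2.52 FPKM in WT replicates 1, 2 and 3, against 1.10, 1.28 and 1.26 FPKM in replicates 4, 5 and 6 of PGRN KO. These levels rested on 64 to 152 fragments per library, and the groups did not overlap. The means were 2.26 ± 0.294 and 1.21 ± 0.0962 FPKM (SD, n = 3 each), with PGRN KO at 53.8% of WT. On the log2(FPKM + 1) scale, which understates the change of a gene at this level, the difference was -0.55 ± 0.10 (95% interval -0.80 to -0.31, adjusted p = 0.0120, limma). It was -0.57 without PGRN KO replicate 6 (adjusted p = 0.00835, limma). Without WT replicate 1 or WT replicate 3 the adjusted p of limma was 0.0632 or 0.0552, so that the call for Ackr3 was lost. The log2 difference was then -0.539 or -0.497. In the same runs the lower calls among all 8882 tested genes went from 1230 to 382 or 486.

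The ratio of Cxcr4 to Ackr3 within a library, which needs no scaling between libraries, differed by 0.07 between the group means. On the log2 scale it was 3.42, 3.60 and 3.58 in WT and 3.68, 3.57 and 3.55 in PGRN KO, and the groups overlapped. Within WT both genes were highest in replicate 3 and lowest in replicate 2, the reverse of Ccr7 and Ccrl2. Their shared ligand Cxcl12 was at most 0.0212 FPKM in any library, and Cxcl11, the other ligand of Ackr3, at most 0.107 FPKM. Mif, a cytokine that can also bind Cxcr4, was at 502 to 770 FPKM over the 6 libraries and did not pass the test.

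Ccrl2, an atypical receptor that holds chemerin at the cell surface and presents it to Cmklr1, was the most abundant of the 9 and did not pass the test. Ccrl2 (ENSMUSG00000043953, chromosome 9, 111054486 to 111057519, minus strand) was at 1211, 1407 and 1019 FPKM in WT replicates 1, 2 and 3, against 1001, 872 and 1064 FPKM in replicates 4, 5 and 6 of PGRN KO. The groups overlapped, since PGRN KO replicate 6 lay above WT replicate 3. The means were 1212 ± 194 and 979 ± 97.9 FPKM (SD, n = 3 each). The log2 difference was -0.30 ± 0.15 with a 95% interval of -0.66 to 0.06 (adjusted p = 0.187, limma), an interval that includes the difference measured for Ccr1. Without PGRN KO replicate 6 it was -0.36 (adjusted p = 0.0882, limma).

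Set against Ccrl2 within each library, the 4 receptors that fell had lower mean ratios in PGRN KO, and the groups were separate for Ccr7 alone. The log2 ratio of Ccr7 to Ccrl2 was -5.39, -5.44 and -5.32 in WT and -5.87, -5.92 and -5.87 in PGRN KO, with a difference of -0.50 between group means and no overlap. The ratios of Ccr1, Cxcr4 and Ackr3 to Ccrl2 had differences of -0.30, -0.52 and -0.59 and overlapped between the groups. These ratios were read as values, with no test. The chemerin gene Rarres2 was at 0 in all 6 libraries. Cmklr1, the signalling receptor of chemerin, was at 26.2 ± 0.492 FPKM in WT against 13.7 ± 1.37 FPKM in PGRN KO (SD, n = 3 each), a log2 difference of -0.90 ± 0.10 (adjusted p = 0.00206, limma) with no overlap.

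**Figure D2:**
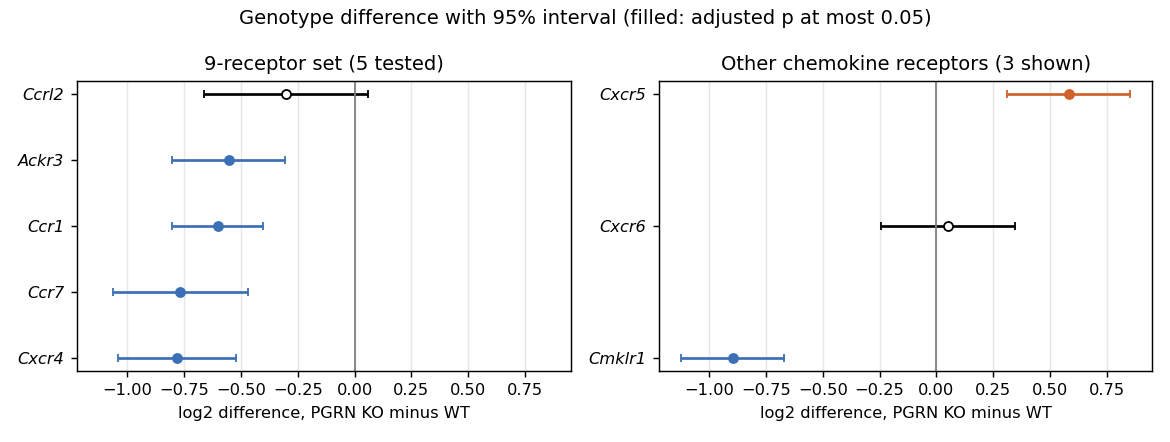
Log2 difference, PGRN KO minus WT, with its 95% interval for the 5 tested receptors of the set (left) and 3 receptors outside it (right), filled where the adjusted p of limma is at most 0.05. The 4 lower receptors of the set lie between -0.78 and -0.55, the interval of Ccrl2 crosses 0, and among the receptors outside the set Cmklr1 lies at -0.90 and Cxcr5 at 0.58.

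Cxcr2 and Cx3cr1, the remaining members, carried almost no signal. Cxcr2, the neutrophil receptor of Cxcl1, Cxcl2, Cxcl3 and Cxcl5, had 0 fragments in all 6 libraries, which allows at most 0.0520 to 0.0665 FPKM per library, the level of 3 fragments. Neutrophil genes were split. Ly6g and Elane were at 0 in all libraries, and S100a9 was at most 0.443 FPKM. S100a8, an alarmin that macrophages can also make, was at 48.8, 52.8 and 48.3 FPKM in WT against 21.2, 23.1 and 25.6 FPKM in PGRN KO and fell by 1.07 on the log2 scale (adjusted p = 0.00142, limma). The 10 neutrophil markers summed to 80.2 to 87.2 FPKM in WT against 53.0 to 54.5 FPKM in PGRN KO, and S100a8 supplied the largest part of the WT sum. All 3 tested markers had negative log2 differences. S100a8 was the only 1 of them that was called, where 13.8% of all tested genes were lower. Mmp8 was at 20.2 ± 0.707 FPKM in WT against 19.5 ± 2.43 FPKM in PGRN KO (SD, n = 3 each, adjusted p = 0.717, limma). Csf3r, at 12.9 ± 0.902 FPKM in WT against 10.2 ± 1.37 FPKM in PGRN KO, did not pass the test either (adjusted p = 0.0887, limma). Every PGRN KO library was below every WT library for Csf3r, a pattern that 27.6% of all tested genes showed.

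Of the ligands of Cxcr2, Cxcl1, Cxcl2 and Cxcl3 were abundant in the same libraries, and Cxcl5 was low, at 0.652 to 1.25 FPKM over the 6 libraries. Cxcl3 was at 507, 572 and 443 FPKM in WT against 279, 265 and 336 FPKM in PGRN KO. It fell by 0.79 ± 0.14 on the log2 scale (adjusted p = 0.0101, limma), with groups that did not overlap. Cxcl2 was at 5869 to 8476 FPKM in WT against 4216 to 5404 FPKM in PGRN KO, and Cxcl1 at 1518 to 2518 and 1158 to 1349 FPKM. Neither passed the test, although for both every PGRN KO library was below every WT library.

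Cx3cr1, the fractalkine receptor of patrolling monocytes and many resident macrophages, had 8, 4 and 4 fragments in WT and 4, 1 and 5 in PGRN KO. The rate ratio was 0.579, with an exact 95% interval of 0.235 to 1.36. Its gene model (chromosome 9, 119901616 to 120069879, minus strand) covers 168.264 kb and overlaps 9 other genes, 3 of them on the same strand, so that even these fragments are uncertain. The ligand gene Cx3cl1 was at 0.0282 to 0.189 FPKM over the 6 libraries. Ccr2 and Cx3cr1, by which classical and patrolling monocytes are usually told apart, were thus near 0 in both genotypes. Ly6c2, a marker of classical monocytes, went from 12.0 ± 0.594 to 3.39 ± 0.348 FPKM (SD, n = 3 each, adjusted p = 0.00119, limma), and the 8 markers of monocytes and small peritoneal macrophages summed to 314 to 328 FPKM in WT against 155 to 223 FPKM in PGRN KO. Fn1, which encodes fibronectin, supplied most of this sum, at 263 ± 7.76 FPKM in WT. Of the 7 tested markers, 3 were lower in PGRN KO by limma and 1 was higher, beside 13.8% and 10.4% of all tested genes. The lower ones were Ly6c2, Clec10a (2.65 ± 0.171 to 0.958 ± 0.105 FPKM, adjusted p = 0.00201, limma) and Fn1 (to 152 ± 47.3 FPKM, adjusted p = 0.0411, limma). Plac8 rose from 2.73 ± 0.212 to 6.51 ± 2.04 FPKM (SD, n = 3 each, adjusted p = 0.0117, limma), and Retnla overlapped between the groups. In 5 of the 7, every PGRN KO library lay below every WT library, a pattern that 27.6% of all tested genes showed. Irf4 and Mrc1 had this pattern and did not pass the test. The part of such cells in the fall of Ccr1, Cxcr4 and Ackr3 was not tested.

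As a check that needs no model, an exact two-sided permutation test was run on FPKM for each receptor. Its p was 0.1, the smallest that 3 against 3 libraries allow, for Ccr1, Ccr7, Cxcr4 and Ackr3. It was 0.2 for Ccrl2 and Ccr3, 0.5 for Cx3cr1 and 0.6 for Ccr2. Groups that do not overlap always give 0.1, so that this value repeats the separation given above and adds no support. In 27.6% of all tested genes, all 3 PGRN KO libraries lay below all 3 WT libraries. This design cannot reach 0.05 by that test.

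Among further chemokine receptors outside the 9, Cmklr1 was lower in PGRN KO, as given above, Cxcr5 was higher, and Cxcr6 did not pass the test. Cxcr5, which takes B cells into follicles, was at 0.682, 0.731 and 0.965 FPKM in WT against 1.63, 1.95 and 1.48 FPKM in PGRN KO. Its log2 difference was 0.58 ± 0.11 (adjusted p = 0.0136, limma), a call that was lost without WT replicate 1 or WT replicate 2. Cxcr5 reached the mean of 1 FPKM needed for the test through its PGRN KO libraries alone, so that its call is no independent support for a rise. B cell markers were higher beside it, with the 5 listed genes summing to at most 2.49 FPKM in every WT library and at least 6.62 FPKM in every PGRN KO library, and the part of B cells in the Cxcr5 result was not tested. The 6 mast cell markers stood at a summed 2.29 to 3.19 FPKM in WT against 9.72 to 14.0 FPKM in PGRN KO. Ackr1 and Ackr2 were at 0 in all libraries.

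Of 24 ligand genes of the 9 receptors, 16 were tested, of which 2 were lower in PGRN KO (Ccl9 and Cxcl3), 1 was higher (Ccl24) and 13 did not pass the test. Of all tested genes 13.8% were lower and 10.4% higher, so that these counts are near the share over all genes. On the TPM scale, 6 of the 16 were lower, where 608 of all 8882 tested genes were. The median log2 difference of the 16 as reported was -0.27. Without PGRN KO replicate 6, 7 ligand genes were lower, where 25.1% of all tested genes were. Ccl3, Ccl4 and Cxcl2 had the highest levels, and Ccl19, Ccl21a, Cxcl12 and Cx3cl1, the main ligands of Ccr7, Cxcr4 and Cx3cr1, were at or near 0 in both genotypes.

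Genes that carry the signal inside the cell moved in both directions. Of 26 in the table, 23 were tested, 7 were lower in PGRN KO and 4 were higher by limma, beside 13.8% and 10.4% of all tested genes, with a median log2 difference of -0.13. Without PGRN KO replicate 6, 11 were lower and 5 higher, beside 25.1% and 16.2% of all tested genes. Without WT replicate 1, 2 or 3, 4 signalling genes were lower. In those runs 382, 443 or 486 of all 8882 tested genes were lower, against 1230 as reported. Regulators of G protein signalling, which speed the shut-off of G proteins, stood at both ends. Rgs1 was at 119, 117 and 110.5 FPKM in WT against 48.4, 53.3 and 45.7 FPKM in PGRN KO, and fell by 1.22 ± 0.09 on the log2 scale (adjusted p = 0.00119, limma). Rgs2 fell from 10.0 ± 1.92 to 3.13 ± 0.546 FPKM (SD, n = 3 each), the largest decrease among the 23 at -1.41 ± 0.16 (adjusted p = 0.00242, limma). Rgs14, another regulator of this family, rose from 3.97 ± 0.292 to 9.41 ± 2.05 FPKM, by 1.05 ± 0.15 on the log2 scale (adjusted p = 0.00529, limma).

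Further downstream, Vav1, an exchange factor for Rac, fell to 46.5% of WT (log2 difference -1.08 ± 0.09, adjusted p = 0.00119, limma). Pik3r5, a regulatory subunit of phosphoinositide 3-kinase gamma that responds to G protein beta-gamma subunits, fell to 55.3% of WT (-0.82 ± 0.13, adjusted p = 0.00724, limma). The phospholipase Plcb3 rose from 5.96 ± 0.134 to 10.6 ± 1.10 FPKM (SD, n = 3 each, 0.73 ± 0.10, adjusted p = 0.00398, limma). The kinases that phosphorylate active receptors went both ways, since Grk6 was higher (0.43 ± 0.10, adjusted p = 0.0220, limma) and Grk5 lower (-0.42 ± 0.11, adjusted p = 0.0350, limma). The inhibitory G protein subunit Gnai3 was lower at -0.45 ± 0.10 (adjusted p = 0.0187, limma), and Gnai2 did not pass the test, with 71.1 to 75.7 FPKM in WT against 61.6 to 79.2 FPKM in PGRN KO.

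**Figure D3:**
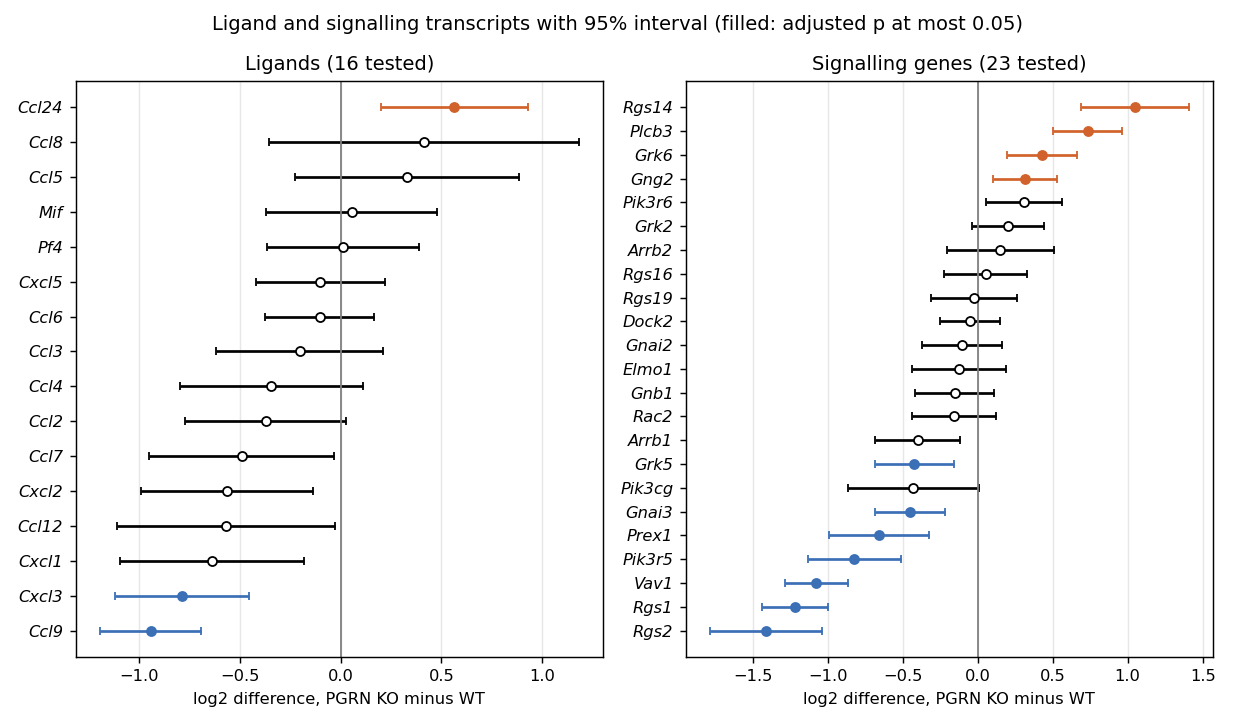
Log2 difference, PGRN KO minus WT, with its 95% interval for the 16 tested ligand genes (left) and the 23 tested signalling genes (right), filled where the adjusted p of limma is at most 0.05. Ccl9 and Cxcl3 lie lowest among the ligands, and Rgs2 at -1.41 and Rgs14 at 1.05 mark the ends of the signalling genes.

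Under 18 other ways of processing the values, the differences of the 5 tested receptors stayed below 0. One of them, median-ratio scaling, is already part of the deposited values and had to give nearly the same result. Ccr1, Ccr7 and Cxcr4 passed the threshold in all 18, with log2 differences of -0.62 to -0.50, -0.86 to -0.67 and -0.85 to -0.68. Ackr3 passed in 15 of the 17 settings in which it was tested, and Ccrl2 in 1 of 18.

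**Figure D4:**
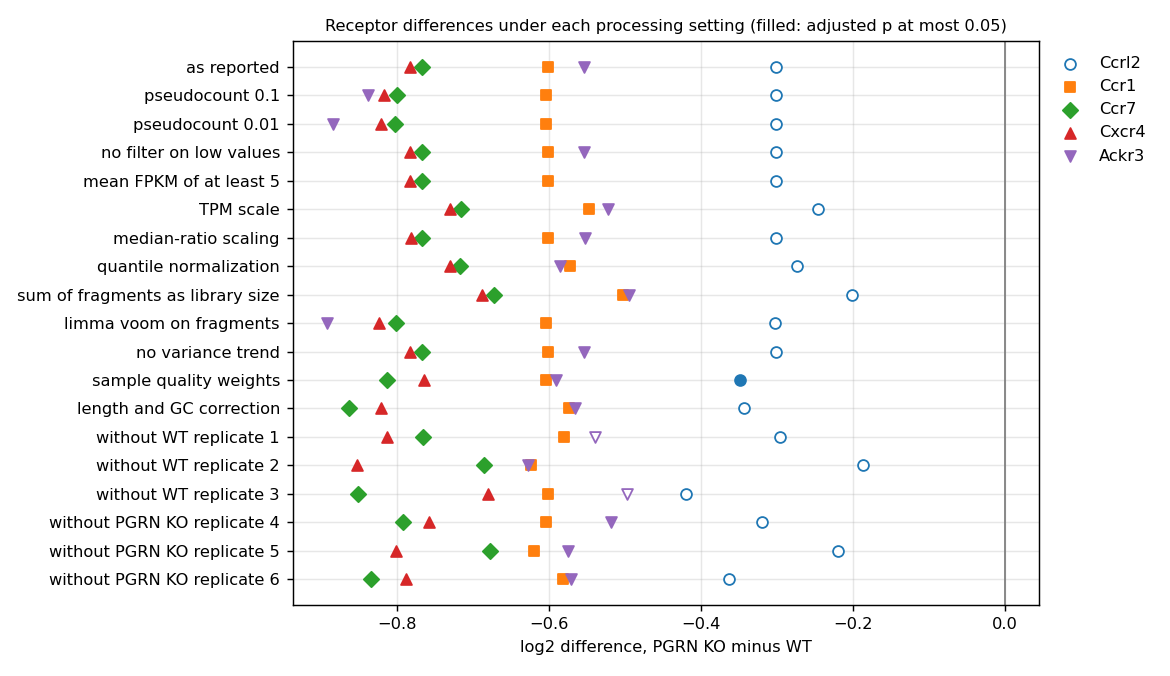
Log2 difference of the 5 tested receptors (horizontal axis, PGRN KO minus WT) as reported and under each of the 18 other settings (vertical axis), with filled symbols where the adjusted p of limma is at most 0.05. Open symbols mark Ccrl2 in all but 1 setting and Ackr3 without WT replicate 1 or WT replicate 3.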

How the data were processed

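Polyadenylated RNA of 3 WT and 3 PGRN KO macrophage samples was sequenced. The authors deposited FPKM per gene, and scaled fragments by gene model length and a library size. The methods name HISAT and HTSeq, and the submitters' processing notes name HISAT2 2.0.5, featureCounts 1.5.0-p3, DESeq2 1.20.0 and the builds mm10 and GRCm38. Which tools made the table is not settled, and the sources used here do not say whether counting used strand. Of the 54532 genes, 99.93% were found by identifier in GENCODE M21 (GRCm38).

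FPKM times gene length gave whole fragments for 100.0% of values above 0, within 0.001, with 15996786 to 17551619 fragments per library. The library size behind the FPKM followed median-ratio size factors. Intervals and floors (3 fragments) describe counting error alone, because PCR copies of 1 molecule could not be told from separate molecules. Values were tested as log2(FPKM + 1) where the mean was at least 1 FPKM, with limma 3.58.1 in R 4.3.3 (variance trend, no covariates, two-sided, Benjamini-Hochberg over 8882 genes, threshold 0.05). As a check of the code, the fit was run on simulated counts with the same dispersion for every gene, few changed genes and no deviating library. Those settings differ from these data, so that the simulation is no support for the calls. A count model was not the main test, since the values are FPKM.

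The receptors and gene lists were chosen with earlier results of these data known. Named were Grn, all 9 receptors, their ligands, up to 4 genes per direction and list with the largest differences past the threshold and no overlap, and markers near 0 or past the threshold. Gnai2, Gnai3, Grk5, Cxcr6, Xcr1, Zbtb46, Mmp8, Csf3r, F5, Prg4, Irf4 and Mrc1 were named after their values were seen. For the list of further chemokine receptors no counts are given, since 1 of its genes is not reported here. Alternatives were pseudocounts of 0.1 and 0.01, no filter, a mean of at least 5 FPKM, a TPM scale, median-ratio scaling, quantile normalization, the sum of fragments as library size, voom on fragments, no variance trend, sample quality weights, a loess correction for gene length and GC content, and leaving out each library.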

Additional observations from a re-analysis of the deposited data

How the results depend on the processing

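The count of receptors that were lower in PGRN KO was 3 to 5 under the 18 alternatives, and the count of higher receptors was 0. Of all 8882 genes tested, 921 were higher and 1230 lower as reported, against 922 and 608 on the TPM scale and 1179 and 695 with the sum of fragments as library size. With sample quality weights 1757 were higher and 2468 lower, and leaving out a library gave 331 to 1438 higher and 382 to 2230 lower. Without a filter 603 of 22912 were higher and 763 lower. Ccrl2 passed the threshold with sample quality weights alone, at a log2 difference of -0.349 (adjusted p = 0.0332, limma), where PGRN KO replicate 6 had a weight of 0.0899. Its adjusted p ranged from 0.0332 to 0.470 over the alternatives. Ackr3 lost its call without WT replicate 1 (-0.539) or WT replicate 3 (-0.497), and was not tested at a mean of at least 5 FPKM. Lower ligand genes, 2 of 16 as reported, numbered 4 to 8 under 8 alternatives. They were 6 on the TPM scale, where 608 of all 8882 tested genes were lower, and 7 without PGRN KO replicate 6, where 2230 were. The ligand counts were thus near the share over all genes as reported, and not on the TPM scale. Lower signalling genes, 7 of 23 as reported, numbered 4 on the TPM scale and 12 with sample quality weights, where 608 and 2468 of all tested genes were lower. The causes were not tested. At this depth, with 8 or fewer fragments per library, no small or moderate difference of Ccr3, Cx3cr1 or Cxcr2 could be shown. No paired analysis was possible because replicate numbers 1 to 3 belong to WT and 4 to 6 to PGRN KO.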
